A study of Mus musculus with 40 samples.

Results

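The melanin-concentrating hormone precursor gene Pmch is active chiefly in the lateral hypothalamus and zona incerta, and its level ranked the mouse brain punches described here. Of 40 libraries, the 8 with the highest Pmch level (the highest set) were set against the 8 with the lowest (the lowest set), with strain as a covariate, and all genes but Pmch were described. The other 24 libraries were not used in that choice. Levels are CPM, a gene's counts divided by the library's total counts and scaled to a common total. The libraries were chosen by their Pmch CPM, so the Pmch values are a description with no test.

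The study sequenced messenger RNA of adult mice in punches labelled as ventral tegmental area, a midbrain region of dopamine neurons. Repeated cross fostering (RCF) moves a litter to another adoptive mother daily, here from postnatal day 1 to 4, and controls are labelled as unhandled. The 8 groups were RCF and control mice of the C57/Bl6 strain (C57 here) and of DBA, males and females apart, with 5 libraries each. Neither animals nor litters are named in the labels, so a p-value here weighs a difference against the spread among libraries, which may be partly technical.

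The lateral hypothalamus lies in front of and above the ventral tegmental area. It holds neurons that make melanin-concentrating hormone, which promotes feeding and rapid-eye-movement sleep, and a separate set of neurons that make orexin from the Hcrt precursor, which keeps the animal awake. The mammillary and tuberomammillary nuclei, marked by Foxb1 and by the histamine enzyme gene Hdc, form the hind part of the hypothalamus and border the ventral tegmental area directly. In bulk tissue, fewer cells of a type and less RNA per cell cannot be told apart.

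To show where these peptide genes start, the 250 bases before the start site are printed 5′ to 3′ on the gene's own strand for Pmch, which chose the libraries, for Hcrt, its partner marker, and for Tac2, a peptide gene of the comparison below. They come from RefSeq (GRCm38.p6). Capitals mark TAAT, the core letters bound by many homeodomain factors, searched on both strands, so ATTA is marked too. The windows are chr10:88090822-88091071 (plus strand) for Pmch, chr11:100762932-100763181 (minus strand) for Hcrt and chr10:127724228-127724477 (plus strand) for Tac2.
Pmch: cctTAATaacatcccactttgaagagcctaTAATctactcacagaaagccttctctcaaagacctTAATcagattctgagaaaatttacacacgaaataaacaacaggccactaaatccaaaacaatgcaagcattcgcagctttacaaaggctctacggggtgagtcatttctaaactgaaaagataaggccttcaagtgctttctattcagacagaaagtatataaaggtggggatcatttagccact
Hcrt: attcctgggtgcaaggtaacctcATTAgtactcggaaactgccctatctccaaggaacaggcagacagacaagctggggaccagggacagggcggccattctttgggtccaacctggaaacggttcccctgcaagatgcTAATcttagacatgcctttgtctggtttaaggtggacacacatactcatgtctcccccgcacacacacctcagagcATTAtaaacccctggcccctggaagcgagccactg
Tac2: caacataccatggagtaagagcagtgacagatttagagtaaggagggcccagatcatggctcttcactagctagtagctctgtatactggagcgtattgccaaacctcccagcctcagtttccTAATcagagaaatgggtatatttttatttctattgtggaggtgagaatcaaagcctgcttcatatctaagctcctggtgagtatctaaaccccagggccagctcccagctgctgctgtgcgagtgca

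The motif occurred 3 times before Pmch, 3 times before Hcrt and once before Tac2. Of all 32851 promoters of this length, 54.9% held it at least once and 17.3% at least 3 times. Of the genes that were higher in the highest set (below), 46 were found in the promoter table and 19 of those held the motif (41.3%). Of the lower genes, 15 were found and 2 held it (13.3%). A match describes letters and is no binding site.

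Pmch spanned a wide range over the punches. In the lowest set it was at 0.407, 0.627, 0.932, 0.991, 1.07, 1.10, 1.31 and 1.63 CPM, which is 10 to 37 counts per library. In the highest set it was at 124.8, 125.4, 127.3, 129.1, 130.0, 141.3, 154.8 and 925 CPM. Thus 7 of the 8 highest libraries lay close together and DBA male control replicate 4 stood far above them. The libraries just outside the sets were at 1.80 and 120.3 CPM, and the median of the 24 between was 10.6.

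The sets were balanced for treatment but not for strain. Each held 4 RCF and 4 control libraries, and females numbered 4 in the highest and 5 in the lowest set. The highest set held 6 DBA and 2 C57 libraries (C57 female control replicate 1 and C57 male RCF replicate 5), and the lowest 7 C57 and 1 DBA (DBA male control replicate 2). The strain term therefore left the comparison to few libraries. Without it the same test called 1327 genes higher and 1518 lower, but those calls cannot be told apart from differences between the strains. Of the 5 C57 female RCF libraries, 4 were in the lowest set and the remaining one was at 1.89 CPM Pmch. Of the highest set, 5 libraries carried replicate number 1.

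Libraries also differed in other tissue markers. Total counts over all libraries were 16913124 to 28179071, with means of 22696372 in the highest and 23366059 in the lowest set (two-sided exact permutation test, p = 0.597). DBA male control replicate 4 had the fewest counts. C57 female RCF replicate 4, in the lowest set, stood apart with Hoxb5, a hindbrain and spinal cord gene, at 30.6 CPM against 0 to 0.177 in the other 15, with Slc17a7, a glutamate transporter gene, at 973 CPM and with Th at 0.655 CPM. The number of calls between the sets is therefore also given below without this library and DBA male control replicate 4. Counts by gene list and counts of overlap were not repeated without them.

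**Figure D1:**
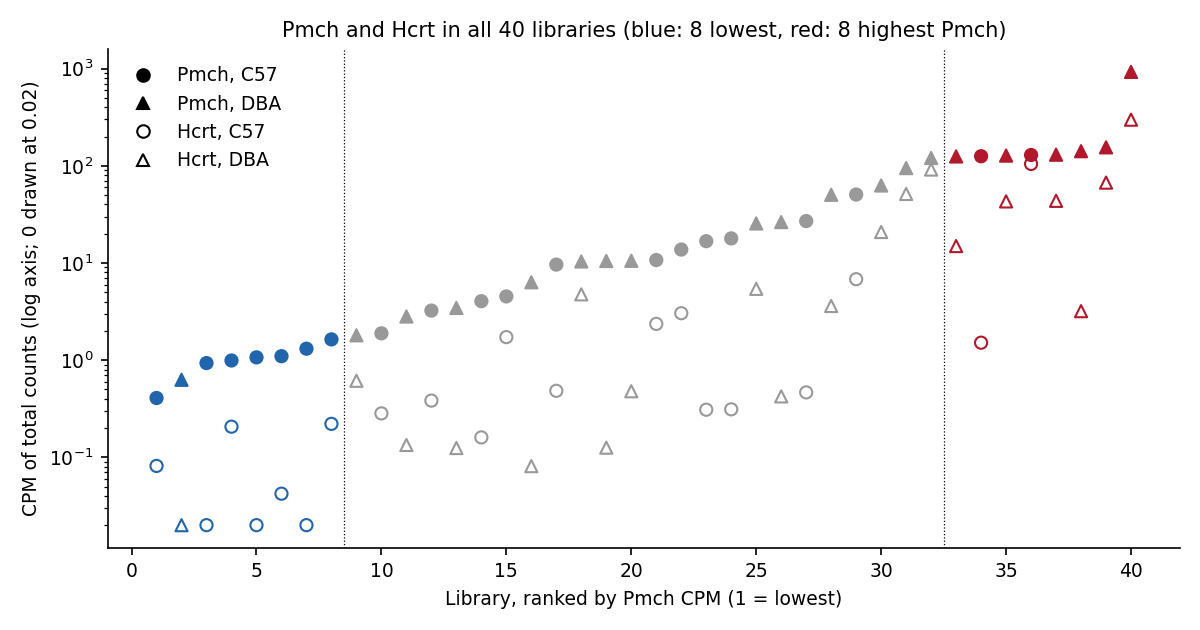
Pmch (filled) and Hcrt (open) in CPM of total counts on a log axis, for the 40 libraries ordered by Pmch, with circles for C57 and triangles for DBA; blue marks the 8 lowest, red the 8 highest and grey the other 24 libraries, and values of 0 are drawn at 0.02. Hcrt is at most 0.221 CPM in the lowest set and between 1.51 and 298 CPM in the highest.

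Of 16467 genes tested, 59 were higher (0.358%) and 18 lower (0.109%) in the highest set at an adjusted p below 0.05 (edgeR quasi-likelihood F test, Benjamini-Hochberg, Pmch left out). They include peptide genes (Hcrt, Gal, Tac2, Npvf, Npy), the histamine enzyme gene Hdc and transcription factors of the hypothalamus and basal forebrain (Nkx2-1, Nkx2-4, Bsx, Lhx6, Isl1, Foxb1 and 4 Dlx genes). Among the lower genes were Aqp4 and Lcat, both known from astrocytes, and Padi2, known from oligodendrocytes. All 59 and all 18 kept their sign in the C57 libraries alone (2 highest, 7 lowest), where 25 and 2 of them were called. Those libraries are part of the same 16, so the shared sign is no separate support. The levels of 37 of the 59 and 11 of the 18 did not overlap between the sets, which held for 1.54% and 0.528% of all tested genes.

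The number of calls depended on the tool and on single libraries, with 182 higher and 202 lower by DESeq2. Without C57 female control replicate 1 8 genes were higher and 0 lower, and without C57 male RCF replicate 5, the other C57 library of the highest set, 30 and 8. Without C57 female RCF replicate 4 there were 166 and 64, without DBA female control replicate 1 37 lower and without DBA male control replicate 4 36 lower. Leaving out both libraries that stood apart gave 292 higher and 183 lower, with all 59 and all 18 among them. Nkx2-4, Lhx6, Gal, Tac2, Sfta3-ps and Bsx stayed past the threshold whichever of the 16 libraries was left out. The calls for Npy, Foxb1, Dlx6, Crhr2, Gabre, Prep, Tspan14 and Igf1 were lost in 8 to 14 of the 16 such fits.

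Hcrt (ENSMUSG00000045471.4, chromosome 11, 100761069 to 100762931, minus strand, GRCm38) encodes the orexin precursor. In the highest set, in the order of rising Pmch, it was at 14.9, 1.51, 43.0, 104.5, 43.6, 3.19, 67.1 and 298 CPM. In the lowest set it was at 0 in 4 libraries and at 0.0422 to 0.221 in the other 4, so the sets did not overlap. The log2 fold change of 9.56 (SE 1.45, adjusted p = 0.0096) became 6.74 to 10.43 when single libraries were left out. A fold change against counts this low depends on the small count added in the fit.

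Within the highest set Hcrt ran from 1.51 to 298 CPM. Apart from DBA male control replicate 4, Pmch spanned only 124.8 to 154.8 CPM there. So narrow a range cannot show whether Hcrt follows Pmch. C57 female control replicate 1 and DBA female RCF replicate 3 had Pmch at 125.4 and 141.3 CPM but Hcrt at only 1.51 and 3.19 CPM, which is 1.204 and 2.26 per 100 of Pmch. In the other 6 libraries Hcrt ran from 11.96 to 81.0 per 100 of Pmch. The 2 precursor genes were thus present in unequal ratios.

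The other tested genes of these neurons did not pass the threshold between the full sets. Cartpt, whose peptide is made by many melanin-concentrating hormone neurons, was at 7.13 to 46.5 CPM in the highest set (median 19.5) and had a median of 2.21 in the lowest, but C57 male control replicate 4 of the lowest set reached 120.5. The sets differed by 1.28 on the log2 scale (SE 1.495, adjusted p = 0.751), and without that library 3.76 (adjusted p = 0.00663). Tacr3, a neurokinin receptor gene made in these neurons and in others, was at 9.53 to 18.3 CPM in the highest and 0.562 to 147 in the lowest set (log2 fold change -2.07, SE 1.09, adjusted p = 0.435). Of the 6 tested genes of this list beside Pmch, only Hcrt passed, and the median was 1.26, against 0.0031 over all tested genes.

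Other hypothalamic peptide genes were higher as well. Gal (ENSMUSG00000024907.7, chromosome 19, 3409915 to 3414544, minus strand), the galanin gene, was at 5.86, 12.04, 17.4, 6.86, 11.1, 10.3, 15.4 and 19.2 CPM in the highest set, in the order of Pmch. In the lowest set it was at 0.281 to 1.63 CPM with no overlap, and the log2 fold change was 3.67 (SE 0.38, adjusted p = 0.000153). Tac2 (ENSMUSG00000025400.11, chromosome 10, 127724478 to 127731768, plus strand), which encodes neurokinin B, was at 9.03, 25.3, 25.5, 31.9, 19.9, 27.2, 45.4 and 10.8 CPM. In the lowest set Tac2 reached 1.52 CPM at most, so that the sets differed by 5.27 on the log2 scale (SE 0.57, adjusted p = 0.000424). For both genes every highest library lay above every lowest one, although the library with the most Pmch was among the lowest of its set for Tac2.

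Npvf encodes RF-amide peptides of the dorsomedial hypothalamus. It was at 0.616 to 15.1 CPM in the highest set and at 0 in 6 of 8 lowest libraries, with 0.717 in DBA male control replicate 2. The log2 fold change was 5.85 (SE 0.96, adjusted p = 0.0108), and 9.43 without DBA male control replicate 2. Npy, the neuropeptide Y gene, was at 3.61 to 16.2 CPM against 1.17 to 5.06 (log2 fold change 2.02, SE 0.40, adjusted p = 0.0306), and here the sets overlapped.

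Hdc (chromosome 2, 126593667 to 126619299, minus strand) encodes the enzyme that makes histamine, in the brain chiefly in the tuberomammillary nucleus. In the order of Pmch the highest set had 1.19, 76.2, 42.5, 21.7, 10.7, 33.7, 9.67 and 2.25 CPM, against 0.0815 to 1.79 in the lowest (log2 fold change 4.94, SE 0.81, adjusted p = 0.0108). The libraries with the least and the most Pmch of the highest set were the ones low in Hdc.

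Of the 27 genes on the list of hypothalamic neuropeptides and Hdc, 20 were tested. Of these, 5 were higher (Gal, Tac2, Npvf, Npy, Hdc) and 0 lower, with a median log2 fold change of 0.72. Of the 20, 17 had a median of at least 10 counts in the lowest set, and the others had little room to come out lower. Over all tested genes 0.358% were higher and the median was 0.0031. Trh and Nts, which encode thyrotropin-releasing hormone and neurotensin, did not pass at 3.12 (adjusted p = 0.0640) and 2.21 (adjusted p = 0.0699). Some other peptide genes of the list were near 0 in most libraries of the highest set. Oxt and Avp, the oxytocin and vasopressin genes, had medians of 0.0446 and 0.0440 CPM in the highest set, but were at 6.23 and 27.8 CPM in C57 male RCF replicate 5. Agrp and Kiss1, of the arcuate nucleus, reached at most 0.920 and 0 CPM in the highest set.

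**Figure D2:**
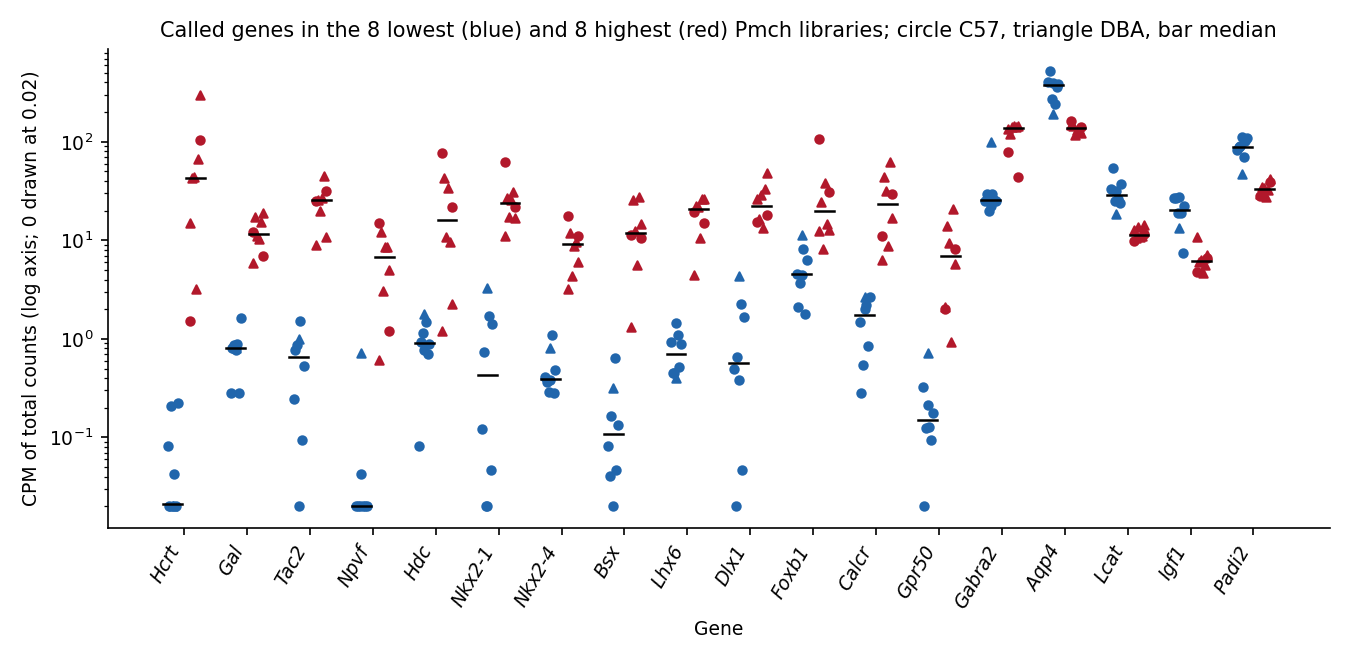
CPM of total counts on a log axis (0 drawn at 0.02) for 18 genes past the threshold, with each library of the lowest (blue) and highest (red) set as a point, circles for C57, triangles for DBA and a bar at the median. Hcrt, Gal, Tac2, Nkx2-1 and Nkx2-4 do not overlap between the sets, and Gabra2 separates by strain within the lowest set.

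Transcription factors made up the list with the most calls. Of 27 hypothalamic and mammillary factors, 24 were tested, 10 were higher and 0 lower, with 21 above 0 and a median log2 fold change of 2.04. Of the 24, 16 had a median of at least 10 counts in the lowest set. The others were near the floor there and had little room to come out lower. Over all 16467 tested genes 0.358% were higher, 8344 lay above 0 and the median was 0.0031. Nkx2-1 (ENSMUSG00000001496.15, chromosome 12, 56531958 to 56536908, minus strand), which sets up the ventral hypothalamus, was at 11.1, 62.4, 26.9, 21.7, 17.4, 25.9, 31.1 and 16.97 CPM in the highest set. In the lowest it was at 0 in 2 libraries and reached 3.27 CPM (log2 fold change 4.80, SE 0.72, adjusted p = 0.00952). Sfta3-ps, a pseudogene next to Nkx2-1 on the same strand (56488321 to 56529427), was at 4.31 to 34.4 against 0 to 1.05 CPM (log2 fold change 5.35, adjusted p = 0.00141).

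Nkx2-4, a relative of Nkx2-1 (chromosome 2, 147083316 to 147085445, minus strand), had the smallest adjusted p of all genes, 7.98e-05, at 3.21 to 17.7 CPM against 0.281 to 1.10 (log2 fold change 4.33, SE 0.40). Bsx, a homeobox gene of hypothalamic feeding neurons, was at 1.32 to 27.8 against 0 to 0.633 CPM (log2 fold change 5.88, SE 0.73, adjusted p = 0.00168). Isl1, a LIM homeobox gene, was at 2.18 to 22.0 against 0 to 0.801 CPM (log2 fold change 5.12, SE 0.91, adjusted p = 0.0156). The highest Isl1 level was that of DBA male control replicate 4, the library with the most Pmch.

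Several of these factors are known from GABA neurons. Lhx6 (chromosome 2, 36081953 to 36105408, minus strand), a gene of zona incerta and hypothalamic GABA neurons, was at 4.403 to 26.5 CPM against 0.403 to 1.45 (log2 fold change 4.60, SE 0.44, adjusted p = 9.67e-05). The 4 tested Dlx genes, which lie in 2 pairs on chromosomes 2 and 6, were all higher, with log2 fold changes of 3.68 (Dlx1), 3.89 (Dlx2), 3.10 (Dlx5) and 3.13 (Dlx6) and adjusted p from 0.00682 to 0.0486. Dlx1 was at 13.5 to 48.2 CPM in the highest and 0 to 4.39 in the lowest set. Among genes of the transmitters themselves, 0 of 8 passed (median 0.18), where over all tested genes 0.358% were higher and 0.109% lower.

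Foxb1, a forkhead gene of the mammillary body, was at 12.4, 106.5, 24.7, 31.0, 8.18, 37.9, 14.5 and 12.8 CPM in the highest set in the order of Pmch. In the lowest set it was at 1.78 to 11.3, so the sets overlapped (log2 fold change 2.63, SE 0.54, adjusted p = 0.0415). The call was lost in 11 of the 16 fits that left out a library, with the smallest fold change without C57 female control replicate 1 (1.75, adjusted p = 0.376). That library had the most Foxb1, Hdc and Cartpt of the highest set and the least Hcrt.

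**Figure D3:**
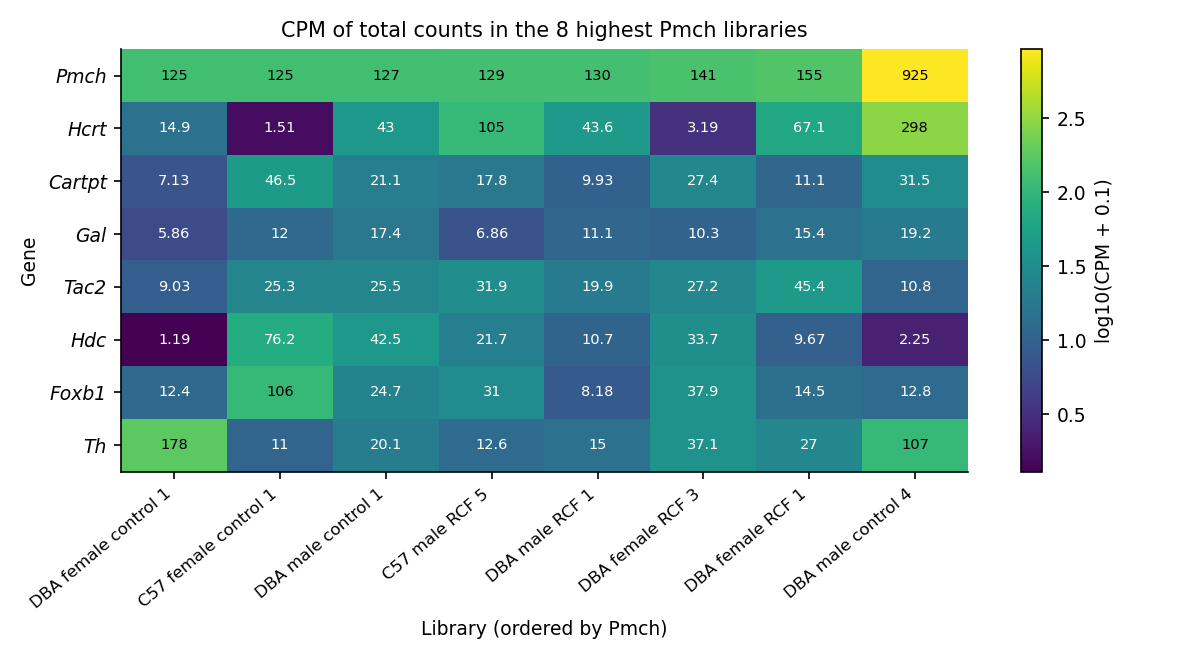
CPM of total counts of 8 genes (rows) in the 8 highest libraries (columns, ordered by Pmch), coloured by log10(CPM + 0.1) with the CPM printed in each cell. C57 female control replicate 1 has 106.5 CPM of Foxb1 with 1.51 of Hcrt, and DBA male control replicate 4 has 298 of Hcrt with 2.25 of Hdc.

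The punches rich in Pmch differed among themselves in the ratios of these genes. Per 100 of Pmch, Foxb1 ran from 1.38 to 84.9, Hdc from 0.243 to 60.8, Tac2 from 1.17 to 29.3 and Gal from 2.07 to 13.7. For Foxb1, Hdc, Tac2 and Gal the lowest ratio was in DBA male control replicate 4. Its Pmch of 925 CPM is the divisor, so a low ratio there need not mean a low level. The Gal level of that library, 19.2 CPM, was the highest of the set. Of these 4 ratios that of Gal spanned the narrowest range.

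Few receptor genes passed the threshold. Mchr1, the melanin-concentrating hormone receptor gene, was at 11.9 to 19.4 CPM in the highest and 7.86 to 15.2 in the lowest set (log2 fold change 0.13, SE 0.16, adjusted p = 0.768). The orexin receptor genes Hcrtr1 and Hcrtr2 had log2 fold changes of -1.13 (SE 0.38, adjusted p = 0.228) and -0.22 (SE 0.46, adjusted p = 0.871). Of 20 receptor genes on the list, all tested, 2 were higher (0.358% over all tested genes) and 0 lower, with a median of 0.11. Those were Calcr, the calcitonin receptor gene, at 6.38 to 62.9 against 0.284 to 2.65 CPM (log2 fold change 3.67, SE 0.61, adjusted p = 0.0119), and Crhr2, which encodes a receptor for urocortins, at 2.201 to 10.6 against 0.140 to 2.56 (2.48, SE 0.51, adjusted p = 0.0362).

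Gpr50, an orphan receptor gene of tanycytes and other hypothalamic cells, was at 0.923 to 20.6 CPM against 0 to 0.717 (log2 fold change 4.47, SE 0.73, adjusted p = 0.0101). It was the one call among 7 tested ependymal and tanycyte genes (0.358% of all tested genes were higher), whose median was 0.20. Summed over that whole list of 11 genes, the levels were 56.0 to 86.9 CPM in the highest and 58.1 to 80.6 in the lowest set.

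Further genes past the threshold had smaller changes. Gpx3, which encodes a secreted glutathione peroxidase, was at 124 to 236 CPM against 21.7 to 73.1 (log2 fold change 1.62, SE 0.24, adjusted p = 0.00682). Otof, a calcium sensor gene of vesicle release, was at 66.1 to 124 against 5.85 to 42.9 CPM (1.85, SE 0.29, adjusted p = 0.0096). Neither gene overlapped between the sets. Insm2, a zinc finger gene, had a log2 fold change of 3.73, but 2.06 without C57 female control replicate 1 (adjusted p = 0.531), which held 6.50 CPM against 0.352 to 0.798 in the other 7. Pdzph1, Ncald, a neuronal calcium sensor gene, and Lrrc42 had 2.89, 0.58 and 0.52. Npas4 was at 5.63 to 17.2 CPM against 2.29 to 5.81 (1.33, SE 0.26, adjusted p = 0.0243). It was the only one of 9 tested immediate early genes to pass, while 0.358% of all tested genes were higher.

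The GABA-A receptor subunit genes Gabra2, Gabrg1 and Gabre, named after their values were seen, were among the calls. Gabra2 was at 43.6 and 79.6 CPM in the C57 and 119 to 144 in the DBA libraries of the highest set, and at 20.02 to 29.6 in the C57 and 100.2 in the DBA library of the lowest. Its level therefore separated by strain as well as by set, and the log2 fold change with strain in the fit was 0.93 (SE 0.15, adjusted p = 0.0101). Gabrg1 was at 48.6 to 80.7 against 34.3 to 45.6 CPM (0.71, SE 0.12) and Gabre at 14.8 to 53.6 against 1.78 to 9.90 (1.72, SE 0.35).

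By the median of the estimates, the lower genes changed less than the higher ones. Of the 18, the median log2 fold change was -0.64, against 1.98 for the 59 higher genes. All 18 but only 46 of the 59 had a median of at least 10 counts in the lowest set, so these medians are not like for like. Padi2, which encodes a peptidylarginine deiminase, was at 27.5 to 42.3 CPM in the highest and 46.9 to 112 in the lowest set (log2 fold change -1.18, SE 0.20, adjusted p = 0.0108). Aqp4, the water channel gene of astrocyte endfeet, was at 116 to 163 against 191 to 523 CPM (-1.06, SE 0.20, adjusted p = 0.0174). Lcat, a cholesterol-esterifying enzyme gene, was at 9.82 to 14.4 against 18.4 to 53.8 (-1.30, SE 0.24, adjusted p = 0.0153). None of these 3 genes overlapped between the sets, and DBA male control replicate 2 had the lowest value of the lowest set for each.

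Nkx6-1, a homeobox gene of ventral midbrain and hindbrain, was at 1.42 to 2.64 CPM against 3.23 to 21.3 (log2 fold change -2.16, SE 0.39, adjusted p = 0.0153). Plekhg1 had -1.01, and -0.59 without DBA male control replicate 2 (adjusted p = 0.266). Acvr1c, an activin receptor gene, had -1.26 and Rassf3 -0.69. The log2 fold changes of Nek7, a mitotic kinase gene, Setd7, a lysine methyltransferase gene, and Cachd1 were -0.55, -0.52 and -0.59. Tmed5, Cnn3, Prep, C2cd2 and Tspan14 lay between -0.59 and -0.44. Igf1, the insulin-like growth factor gene, named after its value was seen, was at 4.70 to 10.8 against 7.39 to 27.2 CPM (-1.61, SE 0.33, adjusted p = 0.0365).

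**Figure D4:**
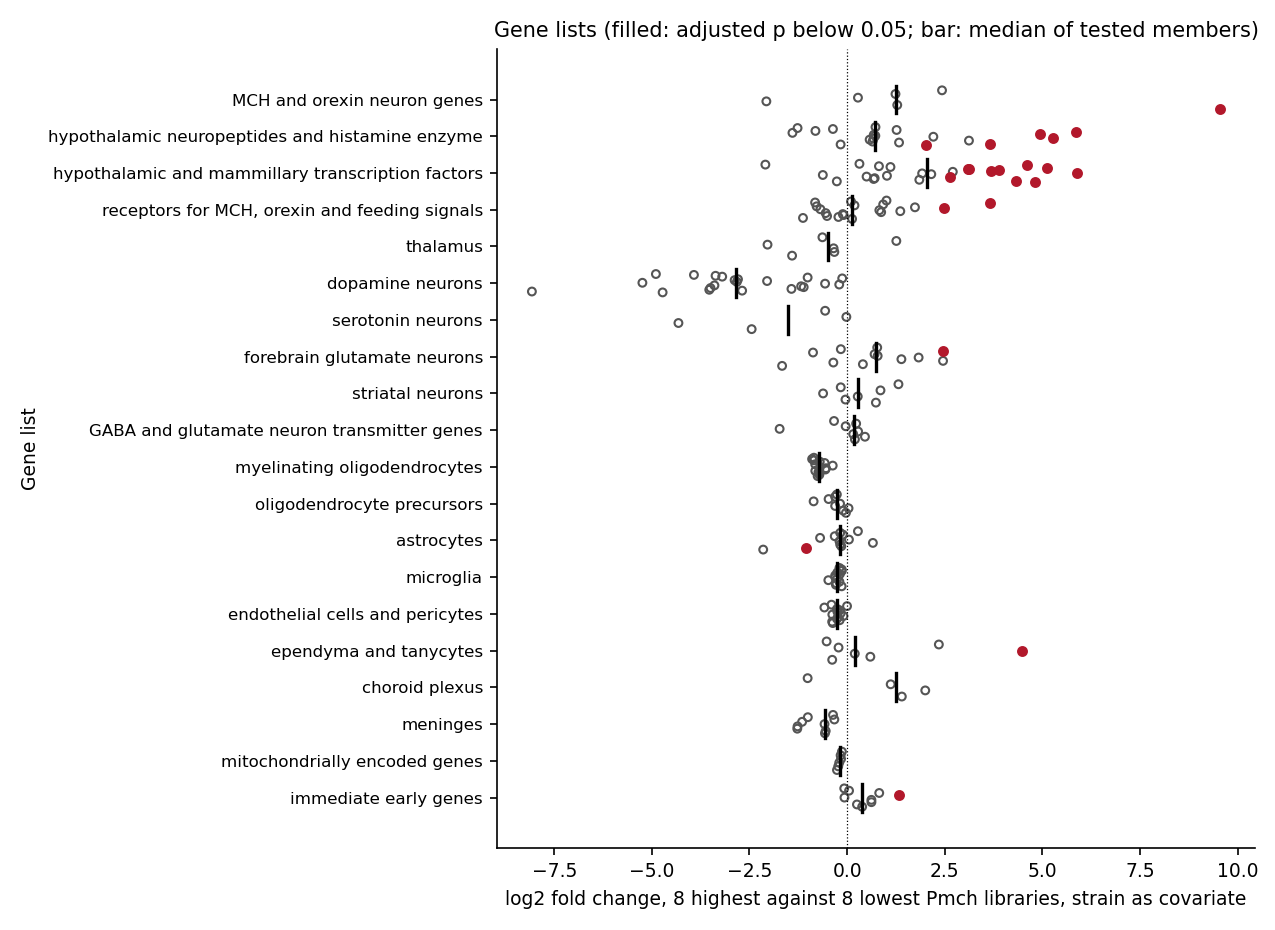
Log2 fold change (highest minus lowest set, strain as covariate) of each tested gene by list, with filled points past an adjusted p of 0.05 and a bar at the list's median. The filled points lie mostly among peptide genes and transcription factors, and all dopamine neuron and myelinating oligodendrocyte genes lie left of 0 without passing the threshold.

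Markers of the labelled tissue differed between the sets by their medians and varied widely over the series. The summed level of 22 dopamine neuron genes was 355 to 1570 CPM in the highest set (median 412) and 352 to 7630 in the lowest (median 5607). Th, the gene of the rate-limiting enzyme of dopamine synthesis, was at 10.95 to 178 CPM in the highest set. In the lowest it was at 0.655 and 15.003 CPM in C57 female RCF replicate 4 and DBA male control replicate 2, and at 103 to 1248 in the other 6. Slc6a3, the dopamine transporter gene, ran from 0.460 to 337 CPM in the highest set, so markers of the labelled tissue were low in many of these libraries. Such low levels were not limited to the highest set. In the other 24 libraries Th ran from 2.90 to 1603 CPM and Slc6a3 from 0.598 to 2885 (median 35.8). DBA female control replicate 3, in neither set, had Th at 2.90 and Pmch at 3.44 CPM. In those 24 libraries all 22 genes had slopes on Pmch below 0 (fit below), as did 51.1% of all genes. All 22 log2 fold changes were below 0 (8123 of all 16467 tested genes were), with a median of -2.85. Of the 22, 0 passed, and the smallest adjusted p was 0.192. Th and Slc6a3 had -4.72 (SE 2.87) and -8.07 (SE 5.40), and without C57 female control replicate 1 -1.92 and -2.06. The part of dopamine neuron content in the calls above was not tested.

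The glial and vascular lists lay mostly below 0. Over all 16467 tested genes 8123 lay below 0 and 0.109% were lower. All 15 myelinating oligodendrocyte genes were below 0 (median -0.71, 0 called), with summed levels of 4267 to 14713 CPM in the highest and 13825 to 26360 in the lowest set. The 13 microglia, 14 endothelial and pericyte and 9 meningeal genes were all below 0 as well, with medians of -0.25, -0.25 and -0.58 and 0 called. Of 12 astrocyte genes 9 were below 0 and Aqp4 alone passed, while Gfap, at 10.5 to 110 against 33.8 to 577 CPM, had -2.15 (adjusted p = 0.356). Beside the lower genes Padi2, Aqp4 and Lcat, the part of these cells was not tested.

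Of the remaining regions, thalamic genes gave 0 of 6 calls (median -0.49), where over all tested genes 0.358% were higher and 0.109% lower. Of 12 forebrain glutamate neuron genes Rprm alone passed, at 16.7 to 174 against 2.57 to 17.97 CPM (log2 fold change 2.45, SE 0.43, adjusted p = 0.0166), with the top value in C57 female control replicate 1. Slc17a7 was at 4.99 to 97.3 CPM in the highest and 4.24 to 973 in the lowest set. The difference was -1.66 on the log2 scale (SE 1.57, adjusted p = 0.686) and turned to 1.02 without C57 female RCF replicate 4. Tph2, the serotonin synthesis gene, was at 0 to 0.504 CPM in the highest set and 0.211 to 236 in the lowest, and neither it nor Hoxb5 passed the filter on low counts.

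The 24 libraries not used to choose the sets were examined next. In them the slope of each gene on log2 Pmch was fitted with strain as a covariate. Over 17729 genes, Hcrt alone passed (0.00564% of genes), with a slope of 1.32 per doubling of Pmch (SE 0.20, adjusted p = 0.0250) and levels from 0.0810 to 91.5 CPM. The Hcrt call ended with sex and treatment also in the fit (1.32, adjusted p = 0.0667), and by leaving out any 1 of 8 libraries, with slopes of 1.18 to 1.34 and adjusted p of 0.0503 to 0.257. These were C57 female control replicates 4 and 5, DBA female RCF replicates 2 and 4, DBA male RCF replicates 2, 4 and 5 and DBA male control replicate 5. At an unadjusted p below 0.05, 552 genes had slopes above 0 (3.11%) and 650 below 0 (3.67%).

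The genes called in the 16 libraries kept their side in most cases. Of the 59 higher genes, 53 had slopes above 0 (89.8%, against 48.9% of all genes), 27 of them at an unadjusted p below 0.05 and 0 with the opposite sign at that level. All 18 lower genes had slopes below 0 (against 51.1%), 10 of them at that level. Calcr and Tac2 had slopes of 0.57 and 0.56 (SE 0.11 each, adjusted p = 0.123 each), Gpr50 0.65 (SE 0.15, adjusted p = 0.301) and Gal 0.43 (SE 0.12, adjusted p = 0.653). On the lower side Lcat and Aqp4 had -0.20 and -0.22 (adjusted p = 0.202 and 0.301). None of these 6 passed after adjustment.

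Some genes did not follow Pmch there. Hdc had a slope of -0.055 (SE 0.22, adjusted p = 0.973), Isl1 of -0.00059 (SE 0.29) and Fezf2, a forebrain factor gene named after its value was seen, of -0.63, although all 3 were higher in the highest set. Foxb1 had 0.23 (SE 0.13, adjusted p = 0.718). In the other 24 libraries Hdc was at 0.377 to 49.8 CPM and Foxb1 at 3.25 to 104, and the Hdc maximum was in DBA female control replicate 3, with Pmch at only 3.44 CPM. The Foxb1 maximum was in C57 female control replicate 5, with Pmch at 50.6 CPM.

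**Figure D5:**
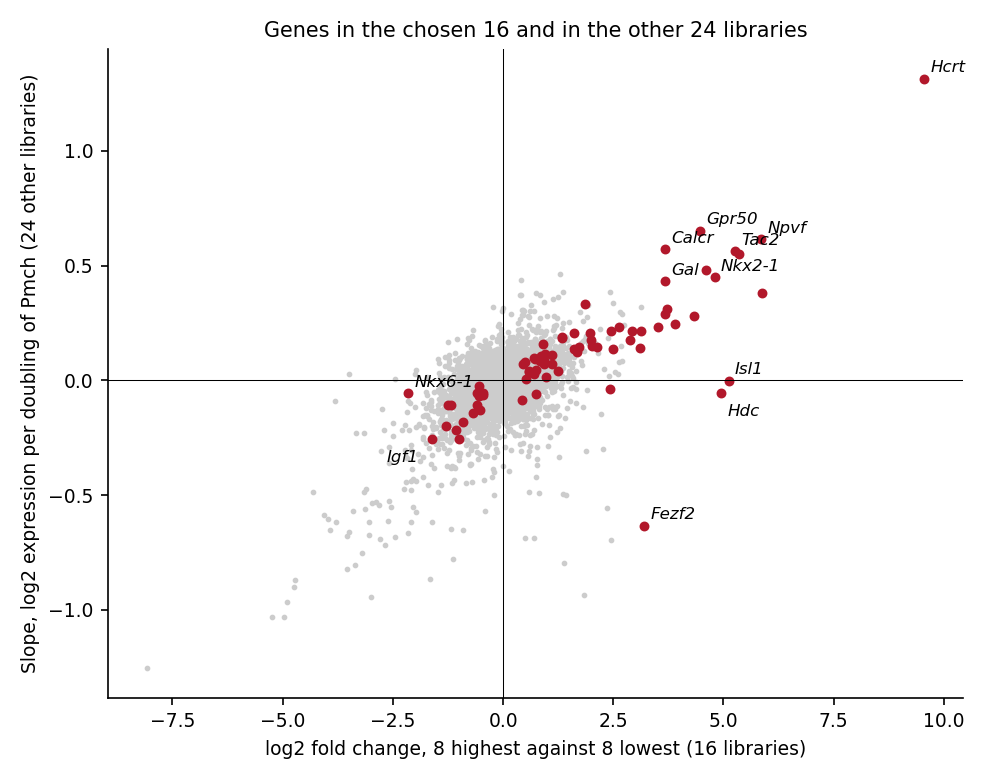
Each tested gene by its log2 fold change between the sets (x axis) and its slope, log2 expression per doubling of Pmch, in the 24 other libraries (y axis), with genes past the threshold in the 16 libraries in red. Most red points lie in the upper right or lower left, Hcrt lies farthest at 9.56 and 1.32, and Hdc, Isl1 and Fezf2 lie on or below the line at 0.

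Over all 40 libraries, which include the chosen 16, 1194 of 17966 genes had slopes above 0 at an adjusted p below 0.05 (6.65%) and 1367 below 0 (7.61%). Of the 59 and 18 genes, 52 and 16 were among them with the same sign. In that fit 16 of the 24 tested hypothalamic and mammillary factors rose with Pmch and 1 fell, and 7 of 20 peptide genes rose. Of the 22 dopamine neuron genes 13 fell, as did 13 of 15 myelinating oligodendrocyte genes, 10 of 14 endothelial and pericyte genes and 4 of 9 meningeal genes. Hcrt had a slope of 1.33 (adjusted p = 5.36e-11), Tac2 of 0.66 (1.20e-07) and Gal of 0.49 (7.73e-07).

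The slopes on Pmch differed between DBA and C57 for 33 of 18440 genes over the 40 libraries (0.179%). Among the named genes these were Npvf (DBA minus C57 -1.50, SE 0.34), Insm2 (-0.61, SE 0.14), Foxb1 (-0.54, SE 0.11) and Rprm (-0.53, SE 0.10), with adjusted p of 0.0464 for the first 3 and 0.0252 for Rprm. The slope of each was thus smaller in DBA than in C57. For Hcrt, Calcr and Gal the differences were -0.021, -0.016 and -0.11 (adjusted p = 0.979, 0.973 and 0.733).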

How the data were processed

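Messenger RNA was sequenced from 40 punches, 5 in each of 8 groups read from the labels. Per the labels' protocols, RNA was taken from frozen punches with a column kit, and strand-marking libraries were read as single reads of 75 bp. The submitters' processing notes list FastQC, cutadapt 1.11, bcl2fastq 2.20 and the GRCm38 (mm10) build. For the aligner, the counter and its strand setting the sources used here give nothing, so reads of overlapping genes may not be told apart. The values deposited by the authors are whole-number read counts per gene, not normalized.

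The table held 55471 genes, 42664 with a count. Symbols and coordinates came from GENCODE M21 of GRCm38 (54487 matched with the version of the identifier, 657 without it and 327 not). Levels are CPM of total counts. The libraries were ranked by Pmch CPM. The 8 highest and 8 lowest were compared by edgeR's quasi-likelihood F test (version 4.0.16, robust, TMM factors 0.911 to 1.07, filterByExpr, strain as covariate, 13 residual degrees of freedom) in R 4.3.3. In the 24 other libraries the slope on log2(Pmch CPM + 0.5) was tested the same way (21 residual degrees of freedom). Benjamini-Hochberg adjustment ran over all tested genes but Pmch, with a threshold of 0.05. At an unadjusted p below 0.05, 2191 genes differed between the sets. The median standard error was 0.16 for a log2 fold change and 0.033 for a slope. The tests were run on simulated counts with the same spread for every gene and no strain effect. That setting is simpler than these data and does not cover strain imbalance or single odd libraries.

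The libraries, gene lists and alternatives were chosen with earlier results of these data known, so the lists are described and not tested. Named genes were, for each direction, the 15 called genes of smallest p, without unnamed gene models, up to 6 called members per list and direction, and Hcrt, Cartpt, Tacr3, Hdc, Foxb1, Nkx2-1, Th, Slc6a3, Tph2, Slc17a7, Hoxb5, Mchr1, Hcrtr1 and Hcrtr2. Other genes were named after their values were seen. Of the 59 higher genes 2 were unnamed models. Deviations of same-numbered libraries of different groups had a median correlation of -0.0063 over 140 pairs, 26 of them over 0.1. For libraries of other numbers the median was -0.00075 over 560 pairs, 90 of them over 0.1. Alternatives were DESeq2 1.42.0, limma voom 3.58.1, RLE scaling, no filter, more covariates, a replicate block, other set sizes and leaving out each library.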

Additional observations from a re-analysis of the deposited data

Results flagged for a closer look

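In single libraries, 11 of 88 sets of 8 values had an end value far from the others on the log2(CPM + 0.5) scale. The chance rate of about 1 in 20 cannot be set against this count. Pmch itself chose the libraries, so its value is a description with no test. Many of the other genes were named because they were called in these libraries, and 5 of the 11 values came from a single library. DBA male control replicate 4 had Pmch at 925 CPM, against 124.8 to 154.8 in the other highest libraries, and Hoxb5 at 0.177. C57 female RCF replicate 4, of the lowest set, had 5 such values: Slc17a7 at 973 CPM, Hoxb5 at 30.6, Hcrtr2, an orexin receptor gene, at 34.6, and on the low side Gpx3 at 21.7 and Tacr3 at 0.562. C57 male RCF replicate 5 had Slc17a7 at 97.3 CPM against 4.99 to 19.2 in the other highest libraries. Insm2 was at 6.50 CPM in C57 female control replicate 1, Cartpt at 120.5 in C57 male control replicate 4 and Hdc at 0.0815 in C57 female control replicate 3.

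The slopes on Pmch differed between the strains over the 40 libraries for 33 genes, among them Npvf (-1.50, DBA minus C57), Insm2 (-0.61), Foxb1 (-0.54) and Rprm (-0.53). This test was added after seeing the data.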

How the results depend on the processing

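Between the sets (59 higher, 18 lower), DESeq2 called 182 and 202, the 5 highest against 5 lowest 30 and 5, the 12 highest against 12 lowest 363 and 505, and the fit with sex and treatment 11 lower. With the replicate block 36 were higher and 12 lower, with 29 of the 59 and 6 of the 18 among them. The labels do not say whether libraries of the same number share anything else. Added after seeing the data, the C57 libraries alone gave 31 and 11, no strain covariate 1327 and 1518, and leaving out the 2 libraries that stood apart 292 and 183. The calls without the strain covariate cannot be told apart from strain differences. Leaving out 1 library gave 8 to 166 higher and 0 to 64 lower. With the 24 libraries (1 higher, 0 lower), voom gave 3 higher, no filter 7 and 3, sex and treatment 0, the replicate block 0, all 40 libraries 1194 and 1367, and leaving out 1 library 0 to 4 higher and 0 to 2 lower. The strain by set interaction within the 16 libraries was not run, since DBA had 1 library in the lowest set. DESeq2 and RLE scaling left all 40 named calls past the threshold, voom 29, the replicate block 22, the C57 libraries 18 and the fit without C57 female control replicate 1 8.

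Slc17a7 turned to 1.05 by DESeq2, 0.020 by voom, 0.53 with the replicate block, 1.19 with 5 against 5, 1.02 without C57 female RCF replicate 4 and 1.05 without the 2 libraries (-3.32 to 1.02 leaving out 1). Hcrtr2 turned to 0.0033 by voom, 0.14 with the replicate block, 0.30 with 5 against 5, 0.16 without C57 female RCF replicate 4 and 0.13 without the 2 (-0.40 to 0.16 leaving out 1). Over the 24 libraries, slopes turned for Lrrc42 (-0.0026 with sex and treatment, -0.0052 with the replicate block, -0.023 to 0.022 leaving out 1 library), Nkx6-1 (0.0033 with sex and treatment, -0.11 to 0.0061 leaving out 1), Acvr1c (0.017 with the replicate block, -0.17 to 0.062 leaving out 1), Hdc (0.0015 with the replicate block, 0.38 over all 40, -0.28 to 0.17 leaving out 1) and Foxb1 (-0.012 to 0.28 leaving out 1). The cause was not tested. Genes with few counts in the lowest set limit the precision: 46 of the 59 had a median of at least 10 counts there.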
